A study of Mus musculus with 2 samples.

Results

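Transcripts of 10 genes tied to neutrophils were followed through the 12 cell clusters of irradiated mouse colon: the calprotectin subunits S100a8 and S100a9, the receptor Csf3r, the secreted proteins Retnlg, Mmp9, Lcn2 and Lyz2, and the granule proteins Ngp, Camp and Ltf. They were taken from a list of symbols, drawn up with earlier results of these data known, and all 10 were found among the 17044 genes of the table. The genes fell into 3 patterns. S100a8, S100a9, Csf3r, Retnlg, Mmp9 and Lcn2 were highest in cluster 5. Ngp, Camp and Ltf were highest in cluster 3, where 1 cell supplied from 99.0% to 100% of each value. Lyz2 was highest in cluster 10.

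Neutrophils are short-lived leukocytes made in bone marrow. They fill their granules in order while they mature, so that the transcripts of the early (primary) and middle (secondary) granule proteins are made in marrow precursors and are largely gone from the mature cell, while transcripts of calprotectin, of the late (tertiary) granule protein Mmp9 and of surface receptors persist. Calprotectin, the S100a8 and S100a9 heterodimer, binds calcium, zinc and manganese, is among the most plentiful proteins of the neutrophil cytosol and is measured in stool as a sign of gut inflammation. Some of the same proteins, lipocalin 2 (Lcn2) and calprotectin among them, can also be made by gut epithelium under inflammatory stimuli.

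The cells were colon epithelium of wild-type C57BL/6 mice taken 2 weeks after irradiation, in 1 group of 2 libraries. The title of the series speaks of transplanted colonoids, but neither label names a transplant. Neither label gives an age, a sex or a number of animals. An unirradiated group was not analysed here, so no level below can be set against that of healthy colon. The deposited columns are clusters and not libraries. No replicate error could therefore be computed, no test was made, and intervals given are 95% Poisson intervals for counting error alone. A level is the mean number of UMIs (unique molecular identifiers, 1 per captured transcript) per 10000 UMIs of a cell. Of the 3082 cells that the arithmetic of the table gave, 2741 (88.9%) had an identified UMI total, with a median of 11685. Cluster 5 (274 cells) was the shallowest, with a median of 1377 UMIs, and cluster 7 the deepest, with 19319.

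Cluster 5 was neutrophil-like by markers: 9 of 10 neutrophil markers were highest there, and their summed level was 1197 per 10000. Since 5 of those markers are also genes described here, their height in cluster 5 is part of how it was named and no finding. The exception was Ly6g, the usual antibody marker of mouse neutrophils, which stood at 0.603 in cluster 5 and at 8.19 in cluster 8. The leukocyte gene Ptprc stood at 3.69 in cluster 5. Epithelial genes were present too, with the adhesion gene Epcam at 3.83 and the keratin Krt8 at 8.98, and 6 epithelial markers summed to 31.2 in cluster 5 against 88.8 to 234.8 in the 10 epithelial clusters. Cluster 10 (31 cells) was mixed: all 10 macrophage or monocyte markers were highest there, as were 6 of 6 T and NK cell markers and 4 of 5 mast cell markers.

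Promoters of 5 of the genes are shown because they form a pair and a trio, each with 1 highest cluster in common. For the trio that cluster rests on 1 cell, described below, so it is no evidence of a shared pattern across clusters. S100a8 (chr3:90668978-90670035, plus strand) and S100a9 (chr3:90692632-90695721, minus strand) lie 22.6 kb apart and were both highest in cluster 5. Ngp (chr9:110419747-110423012, plus strand), Camp (chr9:109847379-109849617, minus strand) and Ltf (chr9:111019271-111042767, plus strand) lie on 1 chromosome, 570 kb and 596 kb apart, and were highest in cluster 3. These gene positions are from GENCODE M21 on GRCm38. The sequences are the 250 bases before the RefSeq start (GRCm38.p6), 5′ to 3′ on the strand of the gene. Capitals mark matches, on either strand, to TTNNGNAA, a loose form of the motif of C/EBP factors, which drive granulocyte genes. The stretches are chr3:90668821-90669070, chr3:90695722-90695971, chr9:110419558-110419807, chr9:109849457-109849706 and chr9:111019042-111019291, in the order printed.
S100a8: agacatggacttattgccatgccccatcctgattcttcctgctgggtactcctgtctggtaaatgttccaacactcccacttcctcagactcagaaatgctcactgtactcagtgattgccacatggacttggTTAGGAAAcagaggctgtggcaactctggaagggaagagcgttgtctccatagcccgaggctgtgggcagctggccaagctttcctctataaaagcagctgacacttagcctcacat
S100a9: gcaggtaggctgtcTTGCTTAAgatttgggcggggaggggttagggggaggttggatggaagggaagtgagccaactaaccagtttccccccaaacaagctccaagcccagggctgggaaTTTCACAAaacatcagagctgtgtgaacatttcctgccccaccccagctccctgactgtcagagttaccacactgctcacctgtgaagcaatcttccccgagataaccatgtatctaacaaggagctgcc
Ngp: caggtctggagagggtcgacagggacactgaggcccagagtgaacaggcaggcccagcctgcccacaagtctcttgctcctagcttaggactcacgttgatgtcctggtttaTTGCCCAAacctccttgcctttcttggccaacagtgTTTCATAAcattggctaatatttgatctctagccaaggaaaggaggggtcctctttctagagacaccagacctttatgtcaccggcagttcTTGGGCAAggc
Camp: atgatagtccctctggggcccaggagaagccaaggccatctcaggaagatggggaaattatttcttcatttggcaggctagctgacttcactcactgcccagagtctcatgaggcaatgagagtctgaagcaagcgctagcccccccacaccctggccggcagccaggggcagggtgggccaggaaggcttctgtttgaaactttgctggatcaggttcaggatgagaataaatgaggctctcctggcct
Ltf: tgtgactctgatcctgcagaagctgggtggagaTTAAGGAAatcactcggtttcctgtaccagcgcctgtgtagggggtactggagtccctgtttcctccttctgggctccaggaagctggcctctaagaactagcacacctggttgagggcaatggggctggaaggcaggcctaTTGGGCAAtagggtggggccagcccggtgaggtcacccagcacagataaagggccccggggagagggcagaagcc

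A promoter entry was found for 9 of the 10 genes (Mmp9 was the exception), and 7 of the 9 held TTNNGNAA, which 36.8% of all 32851 RefSeq promoters of that length also held. The stricter TTGCNNAA was in S100a9, Retnlg, Lcn2, Ngp and Ltf (5 of 9, against 9.56% of all promoters). Adding a base before it, ATTGCNNAA was in Ngp, from 139 to 131 bases before the start, and in Ltf, from 75 to 67 bases before it on the other strand (2 of 9, against 1.93%). The palindrome TTGCGCAA was in none of the 9 and in 0.164% of all promoters. GAGGAAG, a form of the motif of the myeloid factor PU.1, was in S100a8, Csf3r and Lcn2 (3 of 9, against 10.6%). All motifs were searched on both strands, and the C/EBP forms overlap one another, so they are not separate counts. Of the printed promoters S100a8, S100a9, Ngp and Ltf hold the loose form and Camp does not, and among those not printed Csf3r does not. A match is a run of letters, not a bound site.

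Calprotectin made up most of what was measured. S100a8 stood at 427 per 10000 in cluster 5 (420 to 434) and S100a9 at 442 (435 to 449). In the remaining 11 clusters S100a8 lay between 0.0905 (cluster 10) and 16.2 (cluster 2), and S100a9 between 0.136 (cluster 10) and 15.5 (cluster 2). Cluster 5 was thus far above every other cluster, at 26.2 times cluster 2 for S100a8 and 28.3 times for S100a9 (with a pseudocount of 0.1 added to both levels). After cluster 2 came clusters 3 and 11 for both genes, at 7.01 and 5.51 for S100a8 and at 5.48 and 5.66 for S100a9; the intervals of clusters 3 and 11 overlap for each gene. At the low end the S100a8 levels of clusters 8, 7, 4, 1 and 9, from 0.722 down to 0.447, could not be put in order, since each interval overlaps its neighbour's. The pair supplied 92.9% of the summed level of the 10 genes in cluster 5, 96.5% in cluster 2, 63.4% in cluster 3 and 0.403% in cluster 10.

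**Figure D1:**
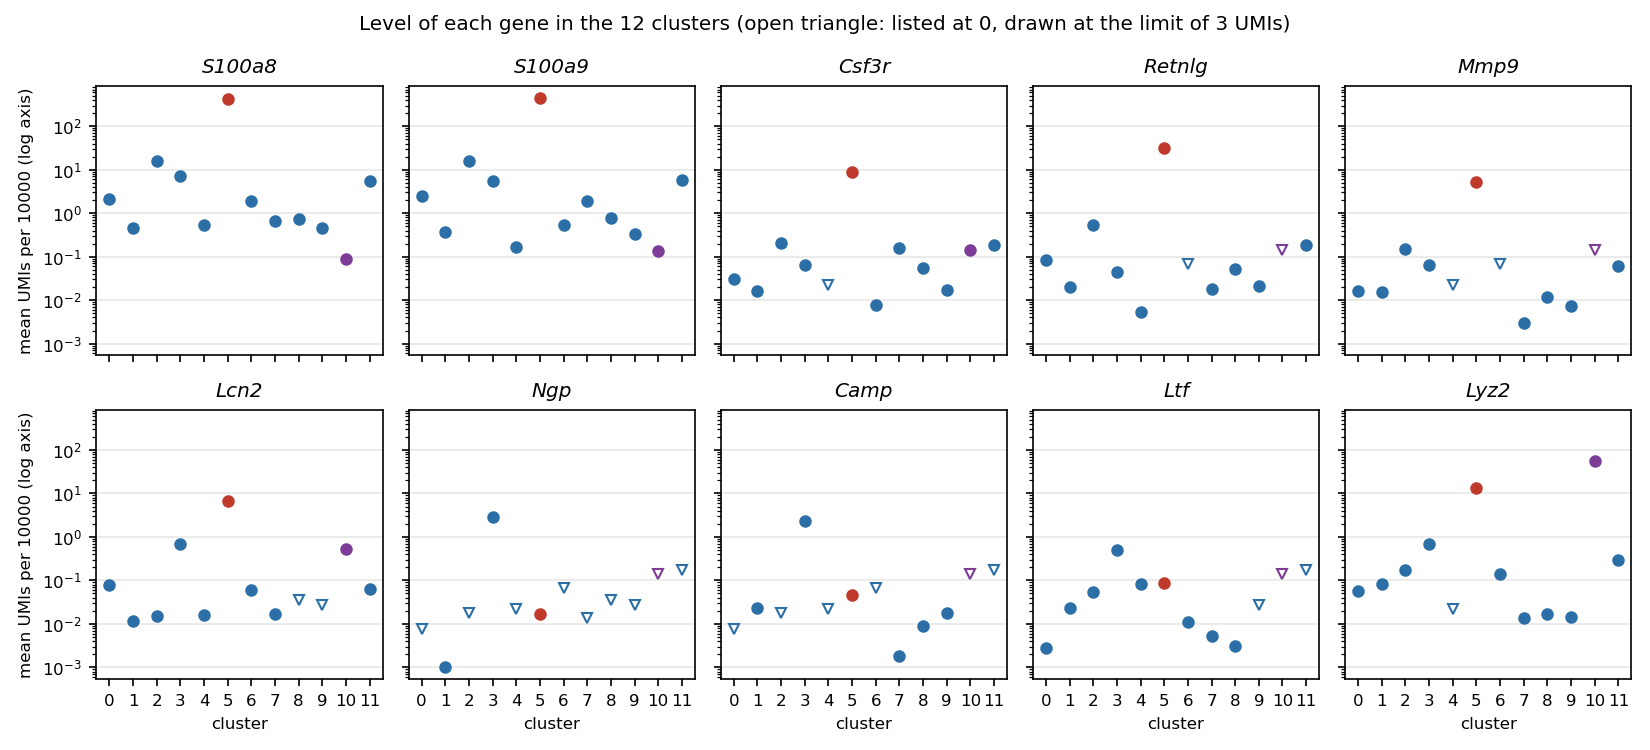
Mean UMIs per 10000 (log axis) of each of the 10 genes in the 12 clusters, 1 panel per gene; cluster 5 is red, cluster 10 purple and the 10 epithelial clusters blue, and open triangles stand for values listed at 0, drawn at the limit that 3 UMIs give. The red point is the highest in 6 panels, cluster 3 is the highest for Ngp, Camp and Ltf, and cluster 10 for Lyz2.

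The other 4 genes highest in cluster 5 were set further apart from the rest or nearer to it. Csf3r (chr4:126024550-126044440), the receptor for the granulocyte growth factor G-CSF, stood at 8.86 in cluster 5 (7.90 to 9.89), at 0.201 in cluster 2, at 0.187 in cluster 11 and at 0 in cluster 4. Retnlg (chr16:48872621-48874496), a resistin-like protein of myeloid cells, stood at 31.4 (29.6 to 33.3), with 0.546 in cluster 2 and 0 in clusters 6 and 10. Mmp9 (chr2:164940780-164955850), the gelatinase of tertiary granules, stood at 5.26 (4.54 to 6.08), with 0.153 in cluster 2 and 0 in clusters 4, 6 and 10. For these 3 genes every interval outside cluster 5 lay below that of cluster 5. Lcn2 (chr2:32384633-32388252), an iron-scavenging protein of secondary granules, stood at 6.65 in cluster 5 (5.83 to 7.56), at 0.699 in cluster 3, at 0.527 in cluster 10 and at 0 in clusters 8 and 9. A listed 0 means that no UMI was counted. The upper limit taken for it is an expected count of 3 UMIs, which is 0.0222 per 10000 in cluster 4 and 0.139 in cluster 10.

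Against the mean of the other 11 clusters, the log2 fold in cluster 5 was 7.38 for Retnlg, 7.14 for S100a9, 5.64 for Csf3r, 5.36 for Mmp9 and 4.84 for Lcn2. For S100a8 the fold itself was 128. Retnlg, S100a9 and S100a8 ranked 1, 2 and 3 of all 17044 genes by this fold, Csf3r 13, Mmp9 19 and Lcn2 38. All of these but Lcn2 were among the markers by which cluster 5 was named. Their ranks, and their part in the counts that follow, are therefore no finding. Lyz2 had a log2 fold of 1.38, Ltf 0.23, Camp -1.12 and Ngp -1.60; without the cells of 5073 and 8457 UMIs described below, Camp came to 0.48 and Ngp to 0.22. The median over the 10 genes was 5.10, against -0.26 over all genes. Of the 10 genes, 7 had a level of 1 or higher and a fold of 2 or higher, which 2.63% of all genes had. Above the highest other cluster by 2-fold were 6, where 1.45% of all genes were. Genes counted as lower, with a mean of the others of 1 or more, made up 5.47% of all genes and 0 of the 10, since Ngp and Camp had a mean below 1.

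By cells and level together, cluster 5 held 91.8% of S100a8, 92.6% of S100a9, 93.2% of Csf3r, 96.9% of Retnlg, 93.8% of Mmp9 and 84.8% of Lcn2 in the whole table. Its share of Lyz2 was 63.7%. Of Ltf it held 9.75%, of Camp 1.55% and of Ngp 0.484%. The 6 genes with shares above 80% are the same 6 that were highest in cluster 5. Summed over the 10 genes, the level was 934.6 per 10000 in cluster 5, or 9.35% of the RNA of an average cell there, and it lay between 0.799 (cluster 4) and 56.1 (cluster 10) elsewhere.

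Ngp, Camp and Ltf, all of secondary granules, were nearly absent from cluster 5. Ngp, a cathelin-related granule protein, had 1 UMI in the 274 cells of cluster 5. Camp, the precursor of the antimicrobial peptide CRAMP, had 2 UMIs there, in 2 cells. Ltf, lactoferrin, an iron-binding granule protein, had 3 UMIs there, in 3 cells. These are whole numbers read back from the averages (0.0169, 0.0467 and 0.0891 per 10000), and each UMI weighs more in a cell with few UMIs. Lcn2, which is stored in the same granules, had about 236 UMIs in the same cells, so the 4 secondary granule genes did not share a level in cluster 5.

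Nearly all Ngp and Camp transcripts of the table came from 1 cell of cluster 3. Its total was 5073 UMIs, of which 483 were Ngp, 404 Camp, 119 Lcn2, 118 Lyz2, 83 Ltf and 2 Mmp9. Together these were 1209 UMIs, or 23.8% of the cell. The cell gave 100% of the Ngp value of cluster 3, 99.9% of Camp, 99.0% of Lcn2, 99.0% of Ltf and 100% of Lyz2, and 18.3% of Mmp9. Across all clusters it held 99.5% of Ngp, 96.6% of Camp, 65.4% of Ltf and 10.9% of Lcn2. Without it, cluster 3 stood at 0 for Ngp and Lyz2, at 0.00203 for Camp, at 0.00698 for Lcn2 and at 0.00509 for Ltf. The levels of the 5 genes in cluster 3 therefore describe this cell and not the 339 cells of the cluster.

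In all, 1376 of the 5073 UMIs of this cell could be given to genes (72 genes), and the rest of its transcripts are unknown. Beside the genes above, those given to it included 23 UMIs of Arhgdib, a gene of leukocytes, 16 of Chil3, a chitinase-like protein, 14 of Ifitm6, 6 of Cebpe, the C/EBP factor needed for secondary granules, 5 of Hp (haptoglobin) and 5 of Mmp8, a granule collagenase. Cebpe was at 0.0364 per 10000 in cluster 5 and Chil3 at 0.0251. Those further genes were picked after their values were seen. How many UMIs of S100a8, S100a9 and Retnlg this cell held could not be read, since their values in cluster 3 were not resolved into cells. The Csf3r value of cluster 3 came from 5 UMIs in 3 other cells. Whether the barcode held 1 cell or more was not tested.

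**Figure D2:**
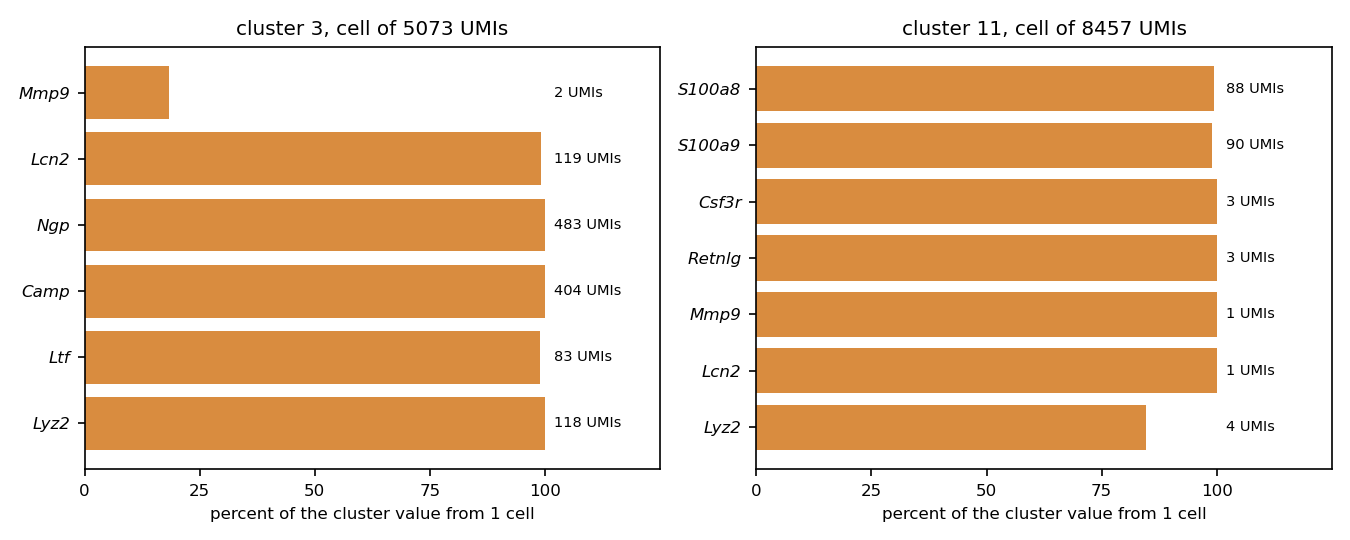
Percent of a cluster's value that came from 1 cell, for the cell of 5073 UMIs in cluster 3 (left) and the cell of 8457 UMIs in cluster 11 (right), with the UMIs of each gene in that cell printed beside the bar. In cluster 3 the bars of Lcn2, Ngp, Camp, Ltf and Lyz2 reach from 99.0% to 100% and that of Mmp9 18.3%, and in cluster 11 all 7 bars lie between 84.5% and 100%.

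A cell of cluster 11 was rich in S100a8 and S100a9. Lyz2, Mmp9 and Lcn2 were found in it and in the cell of 5073 UMIs, whose UMIs of S100a8, S100a9 and Retnlg are unknown. In this cluster of 19 cells, in which the 4 enteroendocrine (hormone-cell) markers were highest, 1 cell of 8457 UMIs had 90 UMIs of S100a9, 88 of S100a8, 4 of Lyz2, 3 of Csf3r, 3 of Retnlg, 1 of Mmp9 and 1 of Lcn2. That was 190 UMIs, or 2.25% of the cell, and Ngp, Camp and Ltf were at 0 in the whole cluster. The same cell had 48 UMIs of the cytokine Il1b and 13 of the immune adaptor Tyrobp. Without it, cluster 11 fell from 5.51 to 0.0390 for S100a8 and from 5.66 to 0.0672 for S100a9, and stood at 0 for Csf3r, Retnlg, Mmp9 and Lcn2. The third-highest levels of S100a9, Csf3r and Retnlg in the table thus rested on 1 cell. Its level of S100a8 was 104 per 10000 of the cell, 0.244 times that of cluster 5.

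Smaller traces also sat in single cells. A cell of 9533 UMIs in cluster 8 held 8 UMIs of Retnlg, 3 of Csf3r and 1 of Lyz2, and a cell of 7253 UMIs in cluster 1 held 5 of Retnlg and 4 of Mmp9. In cluster 10 a cell of 5130 UMIs held 7 of the 8 Lcn2 UMIs of that cluster. Of the 93 values above 0, 45 could be written as whole UMIs in at most 4 cells, and 16 of those came from 1 cell. Outside cluster 5, 64 cells were named in this way, and 11 of them held at least 2 of the genes. The values of S100a8 and S100a9 in the epithelial clusters other than 11 were not resolved, and over how many cells they were spread is unknown.

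In the epithelial clusters the 6 genes highest in cluster 5 were at low levels that were not 1 fixed share of cluster 5. In cluster 2 the median of the 6 was 2.59% of the cluster 5 level, from 0.230% (Lcn2) to 3.80% (S100a8). In cluster 4 it was 0.0280%. In cluster 3 the median was 1.22%, and 0.853% with the Lcn2 and Mmp9 UMIs of the cell of 5073 UMIs taken out. The UMIs of S100a8, S100a9 and Retnlg in that cell are unknown and stayed in. In cluster 11 the median was 1.23%, but 0 without the cell of 8457 UMIs, with 0.0152% as the highest of the 6. A level of 1% or more of cluster 5 was reached by 17 of 66 values of these 6 genes outside cluster 5. In cluster 2, 8 other genes found in neutrophils had shares from 1.02% (the chemokine receptor Cxcr2) to 8.53% (G0s2, a lipase inhibitor gene). Their median there was 4.08%, with Il1b at 3.68%. These 8 were picked by hand with no fixed rule, and not all were particular to cluster 5. In cluster 10 their shares ran from 0 to 22.0% (Il1b), with a median of 6.59%. In cluster 4, which was the lowest for the summed genes, Il1b was at 0.0560% and Trem1 at 0.0993%. The part that RNA of neutrophils had in the levels of the epithelial clusters was not tested.

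**Figure D3:**
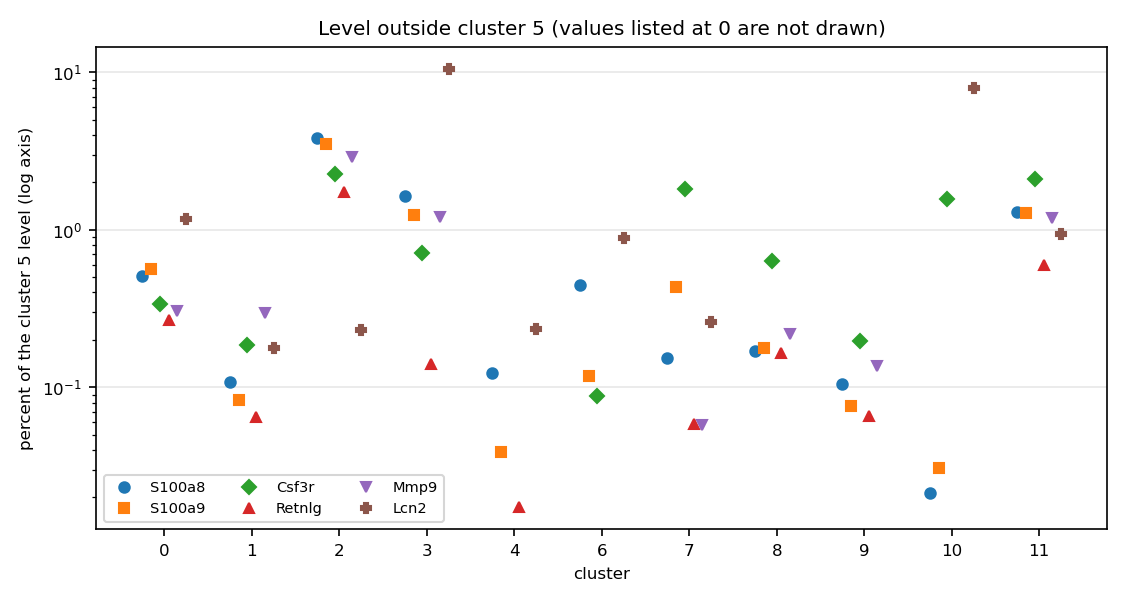
Level of the 6 genes highest in cluster 5 as a percent of their cluster 5 level (log axis) in each other cluster; values listed at 0 are left out. In cluster 2 all but Lcn2 lie between 1.74% and 3.80%, and the highest points are Lcn2 in cluster 3 at 10.5% and in cluster 10 at 7.93%.

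The 2 calprotectin subunits kept a ratio near 1 in cluster 5, but not in every cluster. S100a8 over S100a9 was 0.967 in cluster 5 (0.946 to 0.989), 1.05 in cluster 2 (0.993 to 1.11) and 0.973 in cluster 11 (0.726 to 1.30), where it is in effect the ratio of the cell of 8457 UMIs, with 88 of 89 S100a8 UMIs and 90 of 92 S100a9 UMIs. In cluster 3 it was 1.28 (1.20 to 1.37). The ratio leaned to S100a8 in cluster 6, at 3.62 (2.26 to 6.02), and in cluster 4, at 3.08 (1.90 to 5.17), and to S100a9 in cluster 7, at 0.344 (0.282 to 0.417). About 83.8 UMIs of S100a8 and 23.1 of S100a9 stood behind cluster 6, about 71.2 and 23.1 behind cluster 4, and about 143 and 416 behind cluster 7. These intervals take the UMIs as independent and of cells of average depth, so 1 cell rich in a subunit would make them too narrow. In cluster 10 the ratio rested on 3 UMIs of S100a8 and 4 of S100a9, each in a cell of its own, and could not be told from 1. The coding sequences of the subunits share 49.6% of aligned bases. Bases outside the coding sequences were not compared.

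**Figure D4:**
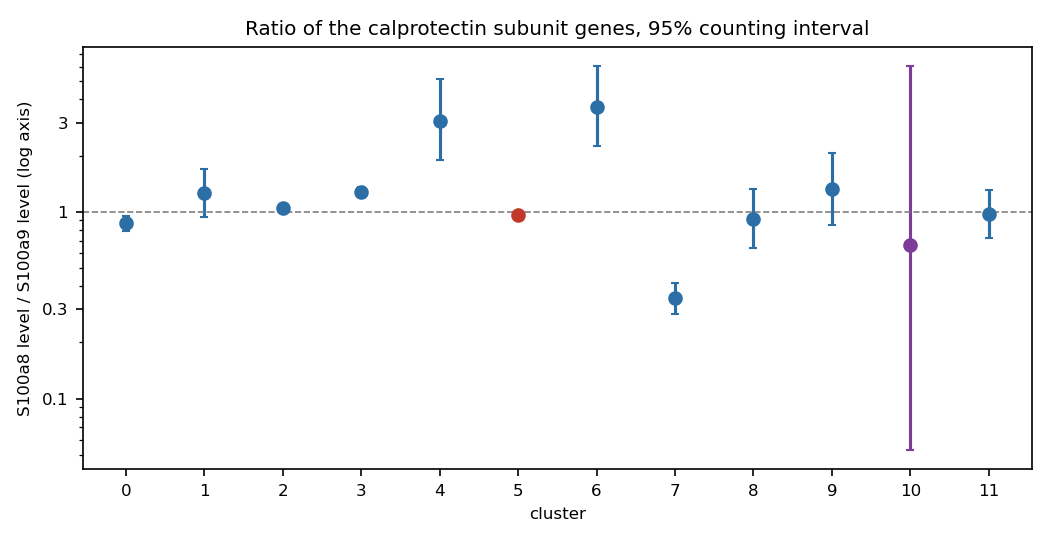
Level of S100a8 divided by that of S100a9 (log axis) in the 12 clusters, with 95% counting intervals and a dashed line at 1. Clusters 4 and 6 lie above the line at 3.08 and 3.62, cluster 7 lies below it at 0.344, and cluster 5, in red, is at 0.967.

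Lyz2 (chr10:117277331-117282321), the lysozyme of macrophages and neutrophils, followed another order. It stood at 55.2 per 10000 in cluster 10 (52.2 to 58.5), at 13.6 in cluster 5 (12.4 to 14.9) and at 0.686 in cluster 3, all of that from the cell described above. In the other 9 clusters it lay between 0 (cluster 4) and 0.294 (cluster 11). Leaving out cluster 10 moved its log2 fold in cluster 5 from 1.38 to 5.78. Macrophage genes moved with it: the 9 macrophage or monocyte markers other than Lyz2 summed to 95.3 in cluster 10 and to 4.14 in cluster 5, where the chemokine receptor Ccr2 was at 0 and Apoe, a lipid carrier of macrophages, was at 1.40 against 47.2. Their part in the Lyz2 level of cluster 5 was not tested. Lyz1, the Paneth cell lysozyme 5.48 kb away, is identical to Lyz2 at 422 of 444 coding bases. Bases outside the coding sequence were not compared, and whether reads passed between the copies was not tested. Lyz1 stood at 0.0527 in cluster 5 and 0.0771 in cluster 10, and was highest in the goblet-like cluster 0, at 0.842.

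Retnlg has close relatives, and those nearest to it by position were highest in other clusters. Retnla, a resistin-like protein of alternatively activated macrophages, stood at 12.8 in cluster 10 and 0.0705 in cluster 5, and Retnlb, the goblet cell member, at 3.62 in cluster 0 and 0.0219 in cluster 5. Its level was 0 in cluster 10 and 0.0847 in cluster 0. Its coding sequence shares 71.3% of aligned bases with Retnla and 72.9% with Retnlb. Retn (resistin), with 53.1% shared, was low but on the side of Retnlg, at 0.404 in cluster 5, 0 in cluster 10 and no more than 0.00206 in an epithelial cluster.

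Related gene lists were described by the same fold of cluster 5 over the mean of the others. Of the 119 listed genes that are none of the 10, 54 were higher, by which is meant here a level of 1 or more per 10000 in cluster 5 and a fold of 2 or more. A further 8 reached 2-fold below that minimum. Genes listed as primary granule were the scarcest, with only 2 of 8 in the table, Serpinb1a, a protease inhibitor, at 0.628 and Prss57 at 0.123. Neither was higher, although Prss57 was 2.18-fold above the mean of the others at a level below the minimum. Of 4 further genes listed as secondary granule 1 was higher, the leukotriene receptor Ltb4r1 at 1.44. Cd177, a neutrophil surface protein, was lower, at 0.566 against up to 6.26 in an epithelial cluster. Of 6 further genes listed as tertiary granule 2 were higher, the formyl peptide receptors Fpr2 at 2.78 and Fpr1 at 2.41. Another 3 reached 2-fold below the minimum: Itgam, an integrin subunit, at 0.758, Mmp8 at 0.712 and Padi4, a histone-modifying enzyme, at 0.381. Side by side, 0 of 2 genes listed as primary, 1 of 4 as secondary and 2 of 6 as tertiary were higher, where 2.63% of all genes were. With no minimum the counts were 1, 1 and 5. The lists hold receptors and enzymes as well as stored proteins, and a gene's class can differ from where its protein is stored. The counts therefore describe the lists and not the granules. Counts this small give no order.

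Receptor and cytosol genes were higher more widely. Beside each count that follows stands the same 2.63% of all genes. Of 17 receptor and signalling genes beside Csf3r, 16 were higher, with a median log2 fold of 4.52, and Ly6g was lower. Highest were Il1b at 240.7, its decoy receptor Il1r2 at 34.7 and the lectin receptors Clec4e at 30.5 and Clec4d at 24.9. Il1b, Clec4d, Trem1, Cxcr2 and Ly6g were also among the markers by which cluster 5 was named, so their part in this count is no finding. Of 18 cytosol and cytoskeleton genes 15 were higher, among them ferritin Fth1 at 271.7, G0s2 at 98.2, the proteoglycan Srgn at 89.7 and the protease inhibitor Slpi at 57.3. Of 6 NADPH oxidase genes 4 were higher, with the cytosolic subunit Ncf1 at 2.67, while Cybb, the catalytic membrane subunit, was at 0.176. Of 9 regulators of granulocyte formation 4 were higher, Spi1 (PU.1) at 9.33, the survival gene Mcl1 at 8.21, Cebpb at 2.48 and Cebpd at 1.99, while Gfi1 was at 0. Of 8 neutrophil chemoattractant genes 6 were higher, with the chemokines Cxcl2 at 343, Ccl3 at 32.0, Ccl4 at 28.8 and Cxcl3 at 11.6.

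S100a8 and S100a9 stood apart from most of their family. Of 14 further S100 genes 1 was higher, S100a11 at 63.5. Another 5 were lower, S100a10, S100a14, S100a16, S100a13 and S100a1, where 5.47% of all genes were lower. The remaining 8 were neither, and some, such as S100b and S100a5, were at or near 0 in every cluster. S100a6 was at 43.9 in cluster 5 and at 158 in an epithelial cluster. Of 6 genes for calprotectin receptors or binding partners 2 were higher, Cd33 at 2.39 and Emb (embigin) at 2.28, and Bsg (basigin) was lower, at 3.35, with Tlr4 at 0.224. Of 15 defence genes that inflamed gut epithelium can induce along with Lcn2, 2 were higher in cluster 5, Nfkbiz at 10.3 and the chemokine Cxcl1 at 2.81. Another 3 were lower, Pigr, Saa1 and Duoxa2. The acute phase gene Saa1 reached 168 in an epithelial cluster and 1.60 in cluster 5. Of 15 macrophage and monocyte genes 2 were higher, the endotoxin co-receptor Cd14 at 56.8 and Cd68 at 1.56, and 3 were lower, Apoe, C1qb and C1qa.

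The genes nearest to each of the 10 were found by Pearson's r of log2(level + 0.1) over the 12 clusters, among 3276 genes at 1 or more per 10000 in a cluster. The 12 points share the 2 libraries and are not independent, so r is a description. S100a8 was nearest to S100a9 (r = 0.97), and S100a9 nearly as near to G0s2 (r = 0.97). Retnlg and Mmp9 were near each other (r = 0.99), with Ankrd33b and the receptor gene Mrgpra2b next for Retnlg, and Gm26740 and Gm37691 for Mmp9. Csf3r was nearest to AB124611 (r = 0.99), then to Gm26740 and Sepn1. Lcn2 had other neighbours, Ltb4r1 (r = 0.95), Ifitm6 and Rab44, each highest in cluster 5 and present in cluster 3. In cluster 3 the cell of 5073 UMIs gave 99.0% of the Lcn2 value and the whole Ifitm6 value. The likeness of Lcn2 and Ifitm6 in that cluster is therefore that of this cell. Ngp and Camp were nearest to each other (r = 0.995), and Ltf to Camp (r = 0.91), which restates that 1 cell. After them came Atp5l (r = 0.70 with Ngp and 0.72 with Camp) and Gsdmc3. Lyz2 was nearest to Arhgdib (r = 0.98), then to Pla2g7 and Cfp (properdin), all higher in cluster 10 than in cluster 5. By Spearman's rank correlation in place of r, 8 of the 30 nearest genes were the same.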

How the data were processed

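The authors deposited 1 table of 17044 genes by 12 clusters. It was made with Seurat 2.3 after Cell Ranger 3.1.0 on mm10, per the submitters' processing notes. Cell filters, doublet treatment and cluster settings are not stated there. Each column sums to 10000, so the values were read as mean UMIs per 10000 per cell, pooled over both libraries. No barcodes were analysed here.

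The number of cells of each cluster, the UMI totals of cells and the UMIs behind low averages were recovered from the arithmetic of the averages (Python 3.11.15, numpy 2.4.6), and a split into cells was accepted where fewer than 0.01 chance matches were expected. On simulated data for all 17044 genes, the cell number was recovered in 12 of 12 clusters and 279 of 283 splits were true. Those splits were of low values and of genes placed in 1 cell. Searches that started from a known cell were not simulated. They gave the Lcn2 and Ltf splits of cluster 3 and the further genes of the cells of 5073 and 8457 UMIs. Of 50 genes raised by each fold, 1 was called at 2-fold and 50 at 4-fold. Folds used a pseudocount of 0.1, a minimum of 1 and a threshold of 2-fold. The genes named are the 10, the 3 nearest to each, the 4 highest in cluster 5 of each list where their values bear on the text, and 8 comparison genes; others are marked or were needed for a count. Members and lists were chosen with earlier results of these data known.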

Additional observations from a re-analysis of the deposited data

How the results depend on the processing

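The median log2 fold of the 10 genes in cluster 5, 5.10, was 2.68 with a pseudocount of 1, 6.07 with 0.01, 5.51 without cluster 10 and, in an alternative chosen after seeing the data, 5.39 without the 2 cells with most UMIs of these genes. The share of the summed level held by cluster 5, 91.1%, was 87.3% with clusters weighted equally, 91.5% without values from 1 cell and 91.9% without those 2 cells. Wherever those 2 cells were left out, only their resolved UMIs were removed. The UMIs of S100a8, S100a9 and Retnlg in the cell of cluster 3 are unknown and stayed in, so the removal was partial. The counts of 6 and 7 genes stayed between 6 and 7 under the alternatives run. Values in epithelial clusters at 1% or more of cluster 5 numbered 34 of 100 (for Ngp, Camp and Ltf the cluster 5 level is 1 to 3 UMIs, so 1 UMI elsewhere can reach 1%), and 25 without values from 1 cell or without the 2 cells. With Spearman's rank correlation 8 of the 30 nearest genes were shared, and with a pseudocount of 1, 23. List genes counted as higher went from 54 to between 52 and 55. Among the 50 recomputed folds of single genes, none of the 7 called genes changed sign. A change of pseudocount cannot turn a sign, so those settings could not have shown it. Ngp and Camp, which were not called, went from -1.60 and -1.12 to 0.22 and 0.48 without those 2 cells.

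No paired analysis was possible because the columns are clusters that pool both libraries, and leaving out a library was not an option for the same reason. Depth limits the low values most: for a listed 0 the upper limit of the expected level is 0.174 per 10000 in cluster 11 and 0.0846 in cluster 5.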
